A study of Mus musculus with 5 samples.

Results

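Levels of 10 Sox transcription factor genes were compared between induced hepatic progenitor cells, hepatic progenitor lines from fetal liver and a neural progenitor line of the mouse. The genes were Sox1, Sox2, Sox3, Sox4, Sox8, Sox9, Sox10, Sox11, Sox17 and Sox21. Every non-control probe that carried 1 of these names, directly or through the current symbol of its accession, was taken. They made up 24 of the 41149 probes with a value on all arrays, and 10 of 28770 gene names. Of the 10 genes, 8 entered the test among 19308 genes, which required a probe well above background on all arrays of 1 or more groups. Sox3 and Sox8 did not.

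The study used 5 single-colour microarrays. The induced hepatic progenitor cells (iHPC) were made from the neural line with pMXs retroviral vectors. Replicate 1, iHPC 9F, received 9 transcription factors and replicate 2, iHPC 10F, received 10. The hepatic progenitor cells (HPC) were HB1 (replicate 1), from C57BL6J fetal liver at E13.5, and HNG2 (replicate 2), from STOCK Tg(Nanog-GFP, Puro)1 Yam fetal liver of the same stage. The neural progenitor cells (NPC, 1 array) were the line NSBAg2, derived from the embryonic stem cell line BAg73C2. This line carries a beta-geo cassette knocked into Afp, the alpha-fetoprotein gene, so iHPC and NPC share that allele and the HPC lines do not. G418, to which beta-geo gives resistance, was added to the iHPC 3 weeks after infection, for 1 week before the cells were collected. The labels do not name the retroviral factors, so whether a Sox gene was among them, or whether any probe below also reads a retroviral transcript, is not given in the sources used here. The labels do not describe HB1 and HNG2, or the 9F and 10F cells, as repeats of the same condition, and the p-values measure only the spread within these pairs of arrays.

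Sox proteins share the HMG box, a DNA-binding domain first described in Sry, which binds the minor groove and bends the DNA. The family is divided by sequence. SoxB1 genes (Sox1, Sox2, Sox3) maintain neural progenitors and Sox2 also pluripotent cells, and the SoxB2 gene Sox21 opposes SoxB1 activity in neural progenitors. SoxC genes (Sox4, Sox11) act in neuronal differentiation and in many embryonic tissues. SoxE genes (Sox8, Sox9, Sox10) act in neural crest, glia and cartilage, and Sox9 also marks bile duct cells in the liver. The SoxF gene Sox17 acts in definitive endoderm and endothelium.

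Non-control spots well above background made up 58.9% to 65.6% per array, no spot was saturated, and the number of arrays limits the precision. Levels are log2 signals minus the array's 75th percentile, so 0 is the 75th percentile. The scanner software's flag decides whether a probe counts as well above background. The arrays of iHPC and NPC were scanned on 1 day and the HPC arrays on 2 other days, so scan day and HPC cannot be told apart, while iHPC and NPC shared a day. All 8 hepatic progenitor markers (Afp, Alb, Ttr, Dlk1, Krt8, Krt18, Hnf4a, Apoa1) were well above background on each iHPC and HPC array, and 2 of 8 on the NPC array. On the NPC array 6 of 8 neural progenitor markers were well above background (Sox2, Pax6, Nes, Fabp7, Msi1 and Zic1, but not Hes5 or Pou3f2). All 8 mesenchymal markers were also well above background there. Their summed linear level, relative to each array's 75th percentile, was 14.04 and 14.3 on the iHPC arrays and 14.1 and 19.0 on the HPC arrays, against 204 on the NPC array. Acta2 was the brightest of the 8 on each iHPC and HPC array. On each iHPC array 7 of 8 were well above background, against 3 of 8 in HB1 and all 8 in HNG2. In iHPC against HPC 6 of these markers had a higher mean and 2 a lower one. The part of such cells in the values below was not tested. Of the 5 endothelial markers, Pecam1, Cdh5 and Tie1 were not well above background on any array, Kdr was on both iHPC arrays and HB1, and Tek in HB1 and NPC. The 4 blood markers with a probe summed to 1.69 and 1.88 on the iHPC arrays, 0.338 and 0.275 on the HPC arrays and 0.339 on the NPC array, and Ptprc was well above background on the iHPC arrays only.

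RefSeq promoter windows (GRCm38.p6, 250 bases before to 50 after the annotated start) were available for 6 of the 10 genes: Sox1, Sox2, Sox4, Sox8, Sox11 and Sox21. Sox3, Sox9, Sox10 and Sox17 had no entry. The windows of Sox2, Sox4 and Sox11 are shown. Of these, only Sox2 was called in the comparisons below that fit all 5 arrays with 1 probe per gene. They are written 5′ to 3′ on the strand of the gene. Capitals mark the CCAAT box and the core letters that HMG boxes of Sox proteins bind, ACAAAG or ACAATG, each searched on both strands, so that a match on the other strand is printed as its reverse complement. These motifs do not overlap one another in the 3 windows.
Sox2 promoter, chr3:34649745-34650044, plus strand: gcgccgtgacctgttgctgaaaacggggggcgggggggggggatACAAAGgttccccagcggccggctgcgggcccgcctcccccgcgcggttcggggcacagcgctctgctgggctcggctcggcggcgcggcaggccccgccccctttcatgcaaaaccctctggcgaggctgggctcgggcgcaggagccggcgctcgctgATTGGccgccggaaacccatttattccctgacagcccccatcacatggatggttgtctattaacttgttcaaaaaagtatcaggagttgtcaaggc
Sox4 promoter, chr13:28953650-28953949, minus strand: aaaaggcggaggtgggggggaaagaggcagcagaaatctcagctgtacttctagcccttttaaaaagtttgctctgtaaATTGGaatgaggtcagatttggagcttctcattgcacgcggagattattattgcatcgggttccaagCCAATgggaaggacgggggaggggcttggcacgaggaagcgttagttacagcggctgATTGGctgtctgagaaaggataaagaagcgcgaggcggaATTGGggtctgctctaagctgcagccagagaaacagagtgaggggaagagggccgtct
Sox11 promoter, chr12:27342669-27342968, minus strand: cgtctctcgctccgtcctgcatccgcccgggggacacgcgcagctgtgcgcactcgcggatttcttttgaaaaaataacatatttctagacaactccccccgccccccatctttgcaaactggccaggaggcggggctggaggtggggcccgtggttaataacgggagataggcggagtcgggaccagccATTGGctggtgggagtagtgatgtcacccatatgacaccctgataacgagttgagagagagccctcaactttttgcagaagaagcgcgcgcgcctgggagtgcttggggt
The Sox2 window held 1 CCAAT box, 46 bases before the start, and 1 HMG core, 206 bases before it. The Sox4 window held 4 CCAAT boxes, at 171, 104, 47 and 8 bases before the start, and no HMG core. The Sox11 window held 1 CCAAT box, 60 bases before the start, and no HMG core. Among the member windows not shown, Sox1 held a CCAAT box, Sox8 and Sox21 held none, and none of these held an HMG core. Of all 32851 windows, 37.4% held a CCAAT box and 28.6% an HMG core. CG dinucleotides numbered 27 in the Sox2 window, 12 in Sox4 and 21 in Sox11, against a median of 7 over all windows.

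Across the tested genes, Sox2 was the member whose level changed in all 3 comparisons, and it was lower in iHPC than in NPC and higher in iHPC than in HPC. On the probe used for each gene, all 8 tested members had lower levels on both iHPC arrays than on the NPC array, a pattern of 43.6% of all genes, and of these Sox2 alone was called. Sox17 was not well above background on the iHPC or NPC arrays, and another Sox21 probe, A_52_P326502, was 2.13 log2 units higher in iHPC than in NPC. The differences of Sox4, Sox9 and Sox11 were past 1 log2 unit, and those of Sox1, Sox10, Sox17 and Sox21 were smaller. Of the 8 tested members 0 were called higher and 1 lower in iHPC against NPC (limma adjusted p under 0.05), where 5.65% of all genes were called (2.8% higher and 2.85% lower). In iHPC against HPC 1 was higher and 0 lower, where 5.43% of all genes were called (3.55% higher and 1.88% lower). In HPC against NPC 0 were higher and 1 lower, where 15.7% of all genes were called (6.68% higher and 8.98% lower). At an unadjusted p under 0.05, 3 of the 8 members passed in iHPC against NPC (24.4% of all genes), 2 in iHPC against HPC (27.6%) and 2 in HPC against NPC (36.4%), so the last 2 counts were no higher a share than over all genes. The median log2 difference of the 8 tested members was -0.97 for iHPC minus NPC (0.03 over all genes), 0.22 for iHPC minus HPC (0.05) and -0.76 for HPC minus NPC (-0.03). Because the comparisons share arrays, their values are not independent of each other.

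**Figure D1:**
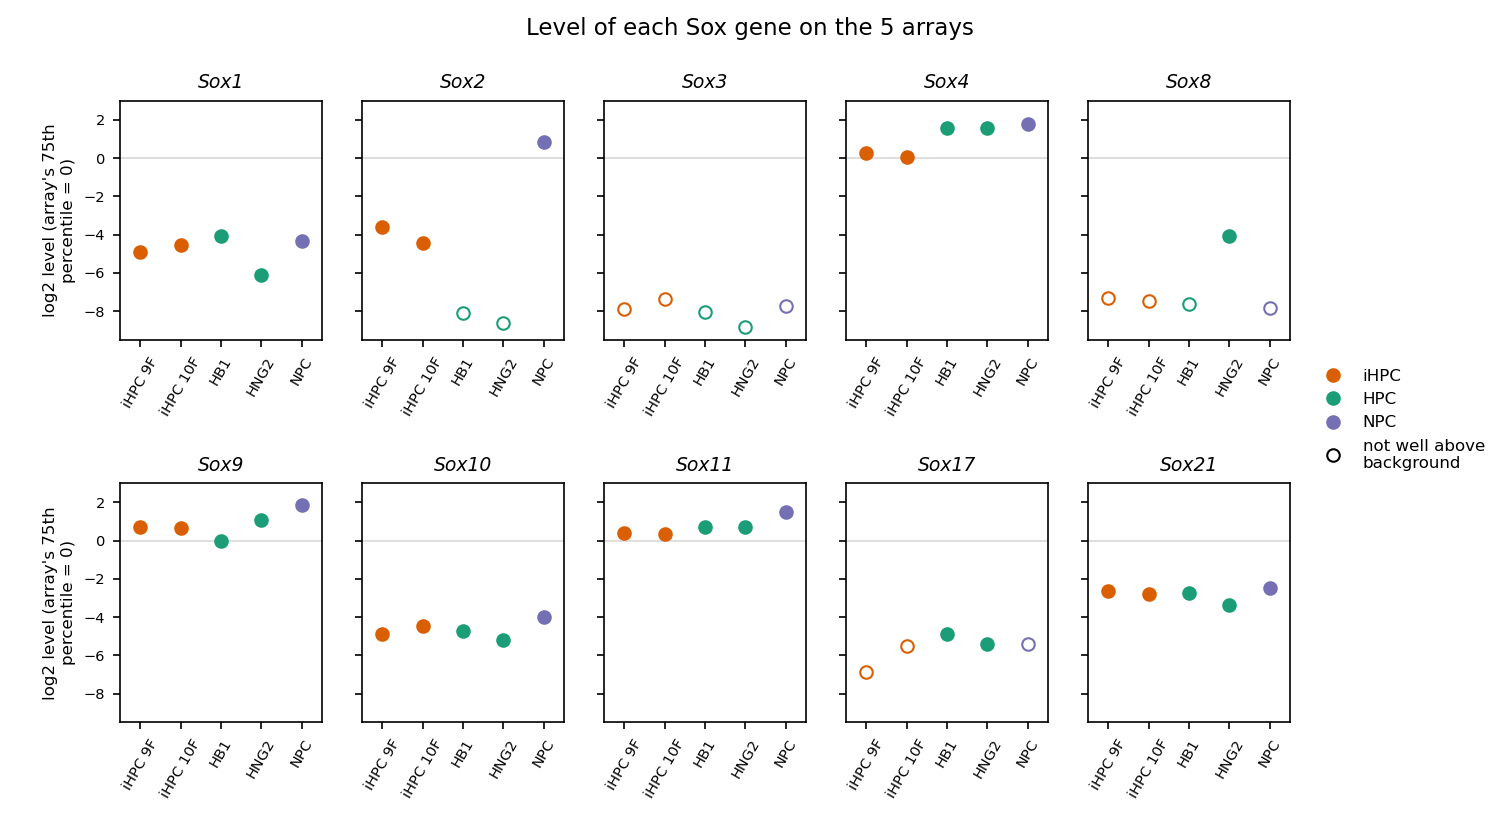
Log2 level (vertical axis, array's 75th percentile at 0) of each of the 10 Sox genes on the 5 arrays (horizontal axis, iHPC in orange, HPC in green, NPC in purple), 1 point per array, for the probe used for the gene. Open points are not well above background, as Sox2 is on both HPC arrays and Sox3 on every array.

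**Figure D2:**
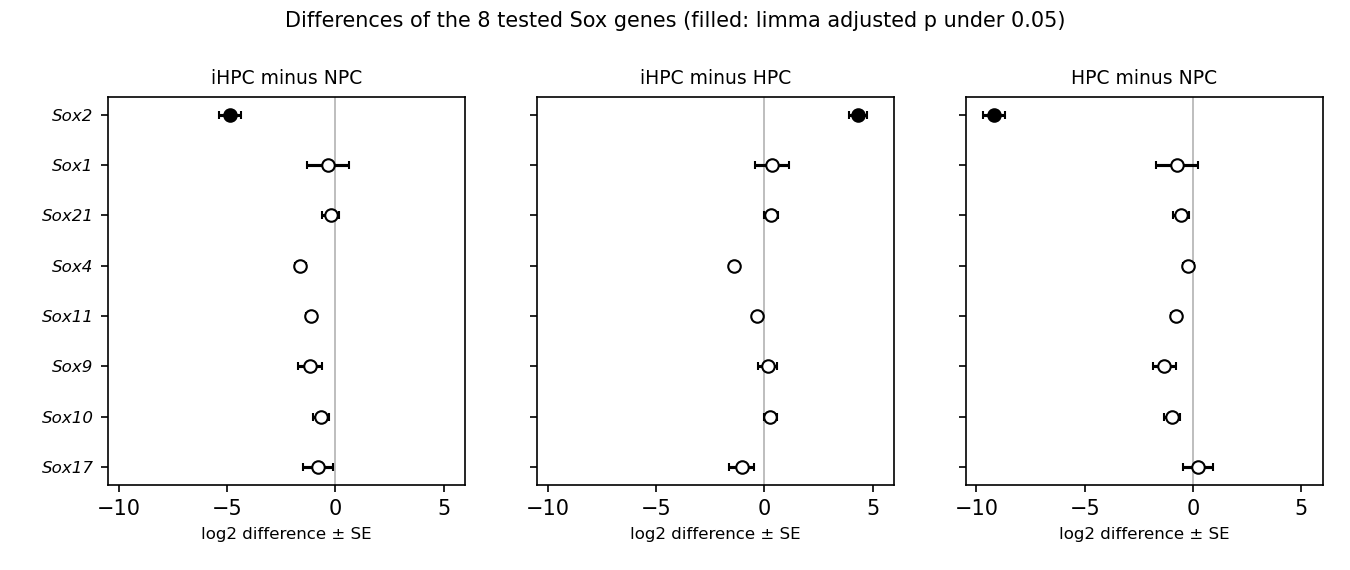
Log2 difference (horizontal axis) of the 8 tested Sox genes in each comparison, with bars for the standard error of the limma fit and filled points where the adjusted p was under 0.05. Sox2 is the filled point in each panel, at -4.86 for iHPC minus NPC, 4.34 for iHPC minus HPC and -9.20 for HPC minus NPC.

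Sox2, the SoxB1 gene of neural progenitors and pluripotent cells, was read by 1 probe on the plus strand (A_52_P307739, chr3:34459231-34459290 in mm7, the build of the array files). Its log2 level was -3.57 in iHPC 9F and -4.41 in iHPC 10F, against -8.07 in HB1 and -8.60 in HNG2 and 0.86 in NPC. The NPC level was above both iHPC levels, both iHPC levels were above both HPC levels, and the groups did not overlap. The HPC signals, 3.99 and 2.20, were not well above background, whereas the signals were 49.6 and 31.9 in iHPC and 1102 in NPC.

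Sox2 fell by 4.86 ± 0.50 (SE) on the log2 scale in iHPC against NPC (29.0-fold lower, limma adjusted p = 0.0338). The mean level was -3.99 ± 0.60 in iHPC (SD, n = 2) and 0.86 in NPC. It was at least 4.97-fold higher in iHPC than in HPC (adjusted p = 0.0301), and at least 144-fold lower in HPC than in NPC (adjusted p = 0.0112). Each bound sets the bright group against the lowest signal well above background on the dim group's arrays, or the dim probe's own signal where that is higher. A gene with such a bound did not enter the test through its dim group. In RNA from bulk cultures, fewer cells with Sox2 and less Sox2 RNA per cell cannot be told apart.

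The iHPC against NPC call was lost with the iHPC arrays as separate groups (adjusted p = 0.151), without a filter on dim probes (0.0534), and without iHPC 9F (0.229) or 10F (0.236), and normexp background correction gave -3.54. The iHPC against HPC call was lost with separate iHPC groups (0.112) and without iHPC 9F (0.226) or 10F (0.201), and normexp gave 1.31. The HPC against NPC call was lost with separate iHPC groups, with only the groups compared and without either iHPC array, which are numerically 1 fit (0.0679), and normexp gave -4.84. Without the filter both of these calls were kept (0.0454 and 0.0166). Between the iHPC arrays, Sox2 was lower by 0.84 on the log2 scale in 10F than in 9F, a larger difference than that of 94.6% of all genes. On the slide that iHPC 10F shared with NPC, the difference was -5.28.

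Sox2 lies within the long noncoding gene Sox2ot, transcribed on the same strand. The files name 3 plus-strand probes B230215L15Rik, a synonym of Sox2ot in RefSeq, which lie on either side of the Sox2 probe over 41755 bases of chr3, and they were chosen after their values were seen. Probe A_52_P389324 had levels of -6.82 in iHPC 9F and -6.09 in iHPC 10F, -6.94 in HB1 and -8.45 in HNG2, and -3.59 in NPC. It was well above background on the NPC array only. The probe thus entered the test only through that single array, where it was high, so nothing is read from its bounds and p-values. The bound was at least 3.59-fold lower in iHPC than in NPC (limma adjusted p over all probes 0.150) and at least 6.60-fold lower in HPC than in NPC (0.0506), and neither passed. Probe A_52_P568001 was well above background in iHPC 9F (-5.17) and NPC (-3.83) and not in iHPC 10F (-7.50), HB1 (-8.29) or HNG2 (-8.94). The probe A_52_P48853 was not well above background on any array. Whether the Sox2 probe also reads Sox2ot transcripts is not given in the sources used here.

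Sox1, which acts in neural progenitors of the central nervous system, was well above background on every array with no called difference. Its levels were -4.88 in iHPC 9F and -4.51 in iHPC 10F, -4.06 in HB1 and -6.09 in HNG2, and -4.34 in NPC. The HPC levels spanned those of iHPC and NPC. The Sox1 signals were low, from 12.5 in HNG2 to 64.3 in HB1. In HNG2 the lowest level well above background was -6.62. The differences were -0.36 ± 0.96 (SE) for iHPC minus NPC (adjusted p = 0.874) and 0.38 for iHPC minus HPC. Sox3, the X-linked SoxB1 gene, was not well above background on any array, with levels from -8.82 to -7.38.

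Sox21 was read by 3 probes within 1373 bases of chr14 that did not give the same result. The brightest, A_52_P557911, had levels of -2.61 in iHPC 9F and -2.81 in iHPC 10F, -2.71 in HB1 and -3.34 in HNG2, and -2.48 in NPC. Its values overlapped between iHPC and HPC, and its difference for iHPC minus NPC was -0.22. Probe A_52_P326502 had levels of -3.66 and -3.77 in iHPC, -4.29 and -4.85 in HPC, and -5.85 in NPC, where it was not well above background. Its bounds against NPC were at least 3.67-fold higher for iHPC (adjusted p over all probes 0.0624) and at least 2.03-fold higher for HPC (0.0871). Probe A_52_P406411 was well above background only in HB1, at -5.57. With the mean of the 2 tested probes, A_52_P557911 and A_52_P326502, the iHPC minus NPC difference was 0.95 (adjusted p = 0.222), a turn in direction with neither value called.

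Of the 16 genes listed as SoxB1 partners and neural progenitor genes, 11 were tested. In iHPC against NPC 0 rose and 1 fell, where 2.8% and 2.85% of all genes did. The median log2 difference was 0.09 (0.03 over all genes). In iHPC against HPC 2 rose and 0 fell (median -0.24, 0.05 over all genes), where 3.55% and 1.88% of all genes did. In HPC against NPC 0 rose and 2 fell (median -0.28, -0.03 over all genes), where 6.68% and 8.98% of all genes did. Pax6, a homeobox factor that acts with SOX2 in eye and brain, followed the order of Sox2. Its levels were -3.05 and -2.84 in iHPC, -4.73 and -4.84 in HPC, and -0.99 in NPC, all well above background. Pax6 fell by 1.96 ± 0.25 (SE) on the log2 scale in iHPC against NPC (adjusted p = 0.0438) and was higher by 1.84 ± 0.20 in iHPC than in HPC (adjusted p = 0.0360). Lhx2, a LIM homeobox factor of the forebrain, had levels of -1.02 and -0.71 in iHPC, -6.71 and -5.97 in HPC, and -2.11 in NPC. It was not well above background in HB1, where the lowest level well above background was -5.99, so its HPC mean is partly a background value. It was higher by 5.47 in iHPC than in HPC (adjusted p = 0.0204), and its iHPC minus NPC difference of 1.24 was not called (0.202). Nes, the progenitor intermediate filament gene nestin, had 2.66 and 2.87 in iHPC, 0.28 and 1.52 in HPC, and 1.18 in NPC, with no call. Pou3f2, a POU factor that pairs with SOX2 in neural cells, was not well above background on any array. Summed over the 8 neural progenitor markers, Sox2 and Pax6 included, the linear level was 10.4 and 11.3 on the iHPC arrays, 1.89 and 3.31 on the HPC arrays, and 18.1 on the NPC array. The brightest of these was Nes on the iHPC and HPC arrays and Zic1 on the NPC array. In iHPC against NPC 4 of the 8 markers had a higher mean and 4 a lower one.

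Sox4, a SoxC gene with roles in heart, lymphocyte and neuronal development, had its lowest levels on the iHPC arrays. The probe A_51_P105178 (chr13:28317744-28317803 in mm7, minus strand) gave 0.29 in iHPC 9F and 0.08 in iHPC 10F, 1.57 in HB1 and 1.59 in HNG2, and 1.80 in NPC. Both iHPC levels were below every HPC and NPC level, and the HPC pair lay within 0.03 of each other. The difference was -1.62 ± 0.25 (SE) for iHPC minus NPC (3.07-fold, limma adjusted p = 0.0567) and -1.40 ± 0.20 for iHPC minus HPC (2.63-fold, adjusted p = 0.0535), so both missed the threshold. For HPC minus NPC it was -0.22 (adjusted p = 0.563), and 0.07 with median centring. For iHPC minus NPC the threshold was passed under 6 of 14 alternatives (adjusted p from 0.0153 to 0.511), but 4 of the 6 are numerically 1 fit (only the groups compared, scan day as a block, and without either HPC array), so 3 of 11 distinct fits passed. It was passed under 6 of 13 for iHPC minus HPC (0.0206 to 0.539), and the sign was the same in all of these. The fit called scan day as a block kept only the arrays scanned on the same day as NPC and had no block term. Between the iHPC arrays the Sox4 difference, 10F minus 9F, was -0.22.

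Sox11, the other measured SoxC member, was read by 6 probes over 7469 bases of chr12 (mm7, minus strand), all well above background on all 5 arrays. The brightest, A_52_P160955 (chr12:25170366-25170425), had levels of 0.39 in iHPC 9F and 0.34 in iHPC 10F, 0.72 in HB1 and 0.71 in HNG2, and 1.49 in NPC. The groups did not overlap, with iHPC lowest and NPC highest. Its difference was -1.13 ± 0.23 (SE) for iHPC minus NPC (2.19-fold, adjusted p = 0.0870), -0.35 for iHPC minus HPC (0.310) and -0.78 for HPC minus NPC (0.102), none of them called. Against NPC all 6 probes had lower iHPC means, by -1.13 to -0.73. By limma 0 of them passed over all probes, where 5.18% of all probes were called, and 4 of the 6 passed at an unadjusted p under 0.05, as did 23.9% of all probes. The 6 probes read the same gene and are not replicates.

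Against HPC the Sox11 probes diverged. Probe A_52_P608516, at chr12:25177775-25177834 and thus the farthest from the brightest probe, had levels of -3.99 and -4.04 in iHPC, -2.22 and -2.24 in HPC, and -2.94 in NPC. It fell by 1.78 ± 0.19 (SE) on the log2 scale in iHPC against HPC (3.44-fold lower, limma adjusted p over all probes 0.0334), where 4.96% of all probes were called. The other 5 probes had iHPC minus HPC differences from -0.44 to 0.23 and were not called. On the gene's minus strand this probe has the highest coordinate, which is the 5′ end of the span covered by the probes.

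**Figure D3:**
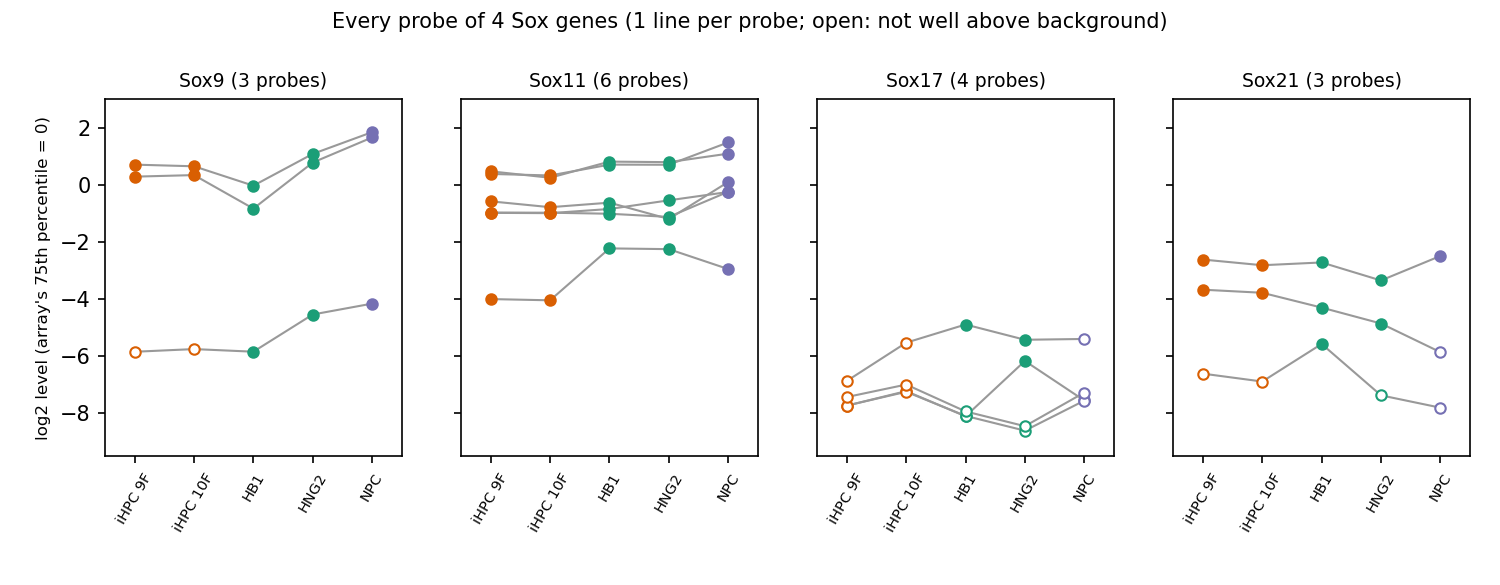
Log2 level (vertical axis, array's 75th percentile at 0) on the 5 arrays (horizontal axis, iHPC in orange, HPC in green, NPC in purple) for every probe of Sox9, Sox11, Sox17 and Sox21, with 1 line per probe and open points where the probe was not well above background. The lowest Sox11 line, at -3.99 and -4.04 in iHPC and -2.22 and -2.24 in HPC, has its minimum on the iHPC arrays.

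Of the 10 SoxC and early neuronal genes 6 were tested and 0 were called in either direction in all 3 comparisons by limma, with medians of -0.87 for iHPC minus NPC, 0.06 for iHPC minus HPC and -0.99 for HPC minus NPC. Over all genes 5.65%, 5.43% and 15.7% were called, and the medians were 0.03, 0.05 and -0.03. Tubb3, a neuronal tubulin gene, had levels of -1.10 and -1.46 in iHPC, -1.73 and -2.001 in HPC, and -1.32 in NPC. Tead2, a transcription factor gene that SOX4 and SOX11 are known to regulate, had 1.17 and 1.30 in iHPC, 1.92 and 2.07 in HPC, and 2.67 in NPC. Its differences were -1.44 for iHPC minus NPC (adjusted p = 0.0664) and -0.77 for iHPC minus HPC (0.121). Dcx, a microtubule gene of migrating neurons, did not enter the test. Stmn2, which encodes a neuronal microtubule regulator, was well above background in HNG2 (-2.18) and NPC (-3.46) and on no other array.

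Sox9, the SoxE gene of cartilage, neural crest and bile duct, was well above background on every array on 2 of its 3 probes, and NPC had the highest level. Probe A_52_P577484 (chr11:112894739-112894798 in mm7) gave 0.72 in iHPC 9F and 0.66 in iHPC 10F, -0.02 in HB1 and 1.09 in HNG2, and 1.85 in NPC. The iHPC levels lay between those of the HPC lines. The differences were -1.17 ± 0.55 (SE) for iHPC minus NPC (adjusted p = 0.309), 0.15 ± 0.45 for iHPC minus HPC (0.856) and -1.32 ± 0.55 for HPC minus NPC (0.185), none of them called. The iHPC minus HPC sign followed the HPC line: without HB1 the difference was -0.40 (adjusted p = 0.111) and without HNG2 it was 0.71 (0.0432).

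The difference HNG2 minus HB1 in Sox9 was 1.11, larger than that of 77.2% of all genes, and between the iHPC arrays, 10F minus 9F, it was -0.06. A second bright probe, A_52_P214630, was printed on 10 spots, 9 of them used on the NPC array, whose SD was 0.04 to 0.09 on the log2 scale. It gave 0.30 and 0.35 in iHPC, -0.82 in HB1 and 0.79 in HNG2, and 1.67 in NPC. The SD between spots of an array is technical and gives no spread between cultures. The third probe, A_51_P451606, spans 853 bases of genome and was not well above background in iHPC (-5.84 and -5.74), against -5.84 and -4.53 in HPC and -4.15 in NPC. All 3 probes had lower means in HPC than in NPC, by -1.69 to -1.03.

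In a fit on only the iHPC and NPC arrays, which leaves out the spread between HB1 and HNG2, Sox2, Sox4, Sox9 and Sox11 were called lower in iHPC than in NPC. These were 4 of the 8 tested members, with 0 higher, where 35% of all genes were called (16.8% higher and 18.2% lower). The adjusted p was 0.0116 for Sox2, 0.0153 for Sox4, 0.0183 for Sox9 and 0.0191 for Sox11. This fit has 1 residual degree of freedom per gene, from the iHPC 9F and 10F pair.

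Sox10, a SoxE gene of neural crest and oligodendrocytes, was well above background on every array on probe A_51_P346704. It gave -4.88 in iHPC 9F and -4.45 in iHPC 10F, -4.71 in HB1 and -5.19 in HNG2, and -3.99 in NPC. The iHPC and HPC levels overlapped and the NPC level was above them, with differences of -0.68 for iHPC minus NPC (adjusted p = 0.363) and -0.96 for HPC minus NPC. Its second probe, A_52_P192625, was not well above background on any array. Sox8, the third SoxE gene, was well above background only in HNG2, on probe A_52_P269667, at -4.05, against -7.83 to -7.29 on the other arrays. It therefore did not enter the test.

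Among the 15 SoxE neural crest and glial genes, 13 were tested. In iHPC against NPC 2 rose and 1 fell (median -1.03), where 2.8% and 2.85% of all genes did. In iHPC against HPC 0 were called by limma (median 0.51), where 5.43% of all genes were. In HPC against NPC 2 rose and 5 fell (median -0.93), where 6.68% and 8.98% of all genes did. The 2 that rose in both cell types against NPC were Erbb3, a neuregulin receptor gene also expressed in epithelia, and Mbp, the myelin basic protein gene, which also has non-myelin transcripts. Erbb3 had 2.53 and 2.96 in iHPC, 1.94 and 0.82 in HPC, and -2.27 in NPC (iHPC minus NPC 5.02, adjusted p = 0.0389). Mbp had 1.92 and 1.67 in iHPC, 2.81 and 2.59 in HPC, and -1.14 in NPC (iHPC minus NPC 2.94, adjusted p = 0.0307). Pdgfra, a growth factor receptor gene of oligodendrocyte progenitors and mesenchyme, had -5.79 and -4.66 in iHPC, -8.11 and -8.60 in HPC, and -0.26 in NPC, and fell by 4.97 in iHPC against NPC (adjusted p = 0.0405). It was at least 66.4-fold lower in HPC than in NPC (adjusted p = 0.0133). The others that fell in HPC against NPC were Tfap2a, Mitf, Olig1 and Ngfr. Pdgfra, Mitf and Olig1 entered the test only through the single NPC array, where they were high, so nothing is read from their calls.

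Of the 9 SoxE cartilage genes 6 were tested, with 0 called in iHPC against NPC by limma (median -1.84), 1 higher in iHPC against HPC (median 1.63) and 3 lower in HPC against NPC (median -3.93). Over all genes 5.65% were called in the first comparison, 3.55% were higher in the second and 8.98% were lower in the third. Col2a1, the type II collagen gene and a target of SOX9, had -2.03 and -1.83 in iHPC, -2.73 and -3.93 in HPC, and 0.95 in NPC. Its differences were -2.88 for iHPC minus NPC (adjusted p = 0.0918) and -4.28 for HPC minus NPC (0.0299). Comp, a cartilage matrix gene, had -0.94 and -0.71 in iHPC, -4.34 and -4.86 in HPC, and 0.51 in NPC, and was higher by 3.78 in iHPC than in HPC (adjusted p = 0.0228). Acan, the aggrecan gene, ran the other way, with 0.47 and 0.68 in iHPC, -1.60 and -0.17 in HPC, and -4.06 in NPC (iHPC minus NPC 4.64, adjusted p = 0.0555, not called). Hapln1, a matrix link protein gene, was at least 3.23-fold lower in HPC than in NPC (adjusted p = 0.0298). Hapln1 entered the test only through the single NPC array, where it was high, so nothing is read from its call. Of the 8 mesenchymal markers, which include collagen genes, 7 had a lower mean in HPC than in NPC, as Col2a1 and Comp did, while Acta2 had 3.803 and 4.05 in HPC and 3.70 in NPC. Their part in these values was not tested.

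Of the 10 bile duct and SOX9-positive progenitor genes 9 were tested. In iHPC against NPC 5 rose and 1 fell (median 2.70), where 2.8% and 2.85% of all genes did. In HPC against NPC 5 rose and 2 fell (median 2.54), where 6.68% and 8.98% of all genes did. In iHPC against HPC 1 rose and 3 fell (median -0.82), where 3.55% and 1.88% of all genes did. The medians over all genes were 0.03, -0.03 and 0.05. Krt19 and Krt7, keratins of bile duct epithelium, were higher in iHPC than in NPC, Krt19 at least 3198-fold (adjusted p = 0.0185) and Krt7 at least 1135-fold (adjusted p = 0.0264). Epcam, an epithelial adhesion gene, was higher by 3.56 log2 units (adjusted p = 0.0342) and Cd24a, a surface protein gene of progenitors, by 2.70 log2 units (adjusted p = 0.0300) in iHPC than in NPC. Onecut1, a transcription factor gene of hepatoblasts and ducts, had -1.75 and -1.48 in iHPC, 2.71 and 2.90 in HPC, and -4.59 in NPC, and was called in all 3 comparisons. Spp1, the osteopontin gene, had 7.89 and 7.57 in iHPC, 4.83 and 4.86 in HPC, and 8.47 in NPC, and was higher by 2.89 in iHPC than in HPC (adjusted p = 0.0234). Cftr, a chloride channel gene, fell by 3.30 in iHPC against NPC (adjusted p = 0.0300), with -4.80 and -5.12 in iHPC and -1.66 in NPC. The 3 that fell in iHPC against HPC were Onecut1, Krt7 and Cd24a. The iHPC minus HPC difference was -3.00 for Krt7 (limma adjusted p = 0.0373) and -1.93 for Cd24a (0.0308). Sox9 itself was not called in these comparisons.

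Sox17, the SoxF gene of definitive endoderm and endothelium, was near background throughout. The probe A_51_P273667 (chr1:4487401-4487460 in mm7) was well above background on the HPC arrays only, with levels of -6.86 and -5.52 in iHPC, -4.88 in HB1 and -5.42 in HNG2, and -5.39 in NPC. The NPC level lay between those of the HPC lines, although it was not well above background. The bound was at least 1.21-fold lower in iHPC than in HPC (adjusted p = 0.322), not called. Probe A_52_P279368 was well above background only in HNG2 (-6.16). The others, A_52_P365096 and a probe on the opposite strand, A_52_P1180325, stayed below that flag on all 5 arrays.

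Of the 9 SoxF and endoderm genes 7 were tested. In iHPC against NPC 1 rose and 1 fell (median 1.39), where 2.8% and 2.85% of all genes did. In iHPC against HPC 1 rose and 2 fell (median -2.24), where 3.55% and 1.88% of all genes did. In HPC against NPC 3 rose and 1 fell (median 4.11), where 6.68% and 8.98% of all genes did. Hnf4a, a liver transcription factor gene, was at least 135-fold higher in iHPC than in NPC (adjusted p = 0.0264). Foxa2, a pioneer factor gene of endoderm, had 0.07 and -0.36 in iHPC, 4.91 and 4.56 in HPC, and 2.98 in NPC. It fell in iHPC against both, by 3.13 against NPC (adjusted p = 0.0350) and by 4.88 against HPC (adjusted p = 0.0183). Gata6, another endoderm factor gene, had -3.46 and -3.78 in iHPC, 3.48 and 2.21 in HPC, and -5.11 in NPC, and fell by 6.47 in iHPC against HPC (adjusted p = 0.0244). Cxcr4, a chemokine receptor gene of endoderm and neural progenitors, had -3.64 and -3.65 in iHPC and -2.12 in NPC and was not well above background in HPC, at least 6.32-fold higher in iHPC than in HPC (adjusted p = 0.0183). Against NPC, Eomes, a T-box gene of early endoderm, was at least 5.07-fold higher in HPC (adjusted p = 0.0379). Eomes entered the test only through the HPC arrays, where it was high, so nothing is read from its call. Gata4 had levels from -4.72 to -4.26 with no call. Of the 9 endothelial genes 4 were tested, and 1, the receptor gene Flt1, rose in iHPC and in HPC against NPC, with 2.66 and 2.12 in iHPC, 3.63 and 3.70 in HPC, and -0.59 in NPC. None of these 4 was called in iHPC against HPC by limma. Of all genes, 2.8% rose in iHPC against NPC, 6.68% rose in HPC against NPC and 5.43% were called in iHPC against HPC.

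Of the remaining Sox family 10 genes with 18 probes were on the array, and 7 genes entered the test. In iHPC against NPC 0 rose and 1 fell, in iHPC against HPC 0 were called by limma (1 at an unadjusted p under 0.05, against 27.6% of all genes), and in HPC against NPC 0 rose and 2 fell. The calls were Sox7 in both comparisons with NPC and Sox5 in HPC against NPC, and each gene entered the test only through the single NPC array, where it was high, so nothing is read from these counts. Sox7, a SoxF gene, was well above background only in NPC on probe A_51_P476018, at -3.52, against -7.71 and -7.20 in iHPC and -8.04 and -8.56 in HPC. It was at least 3.76-fold lower in iHPC (limma adjusted p = 0.0329) and at least 6.91-fold lower in HPC (adjusted p = 0.0148) than in NPC. The iHPC call was lost without the filter on dim probes (0.0549), with normexp (difference -0.71, 0.175), with separate iHPC groups (0.158) and without iHPC 9F (0.256) or 10F (0.236), and the HPC call was lost in fits without the spread between the iHPC arrays (0.0754). The other Sox7 probe, A_52_P644005, was not well above background on any array, at -5.54 in NPC. Sox18, the third SoxF gene, was well above background only in HB1 (-3.89).

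The SoxD genes, which lack a transactivation domain, were Sox5, Sox6 and Sox13. Sox5 on probe A_52_P352356 was well above background only in NPC (-4.76), at least 2.93-fold lower in HPC (adjusted p = 0.0219) and at least 1.59-fold lower in iHPC (0.0570, not called). The HPC call was lost in fits without the spread between the iHPC arrays (0.0932). On another Sox5 probe, A_51_P500318, only HNG2 was well above background (-4.95). Sox6 likewise depended on the probe, and in HPC against NPC 15.2% of all probes were called. The probe A_52_P282171 gave -5.98 in iHPC 9F, -3.62 in iHPC 10F, -4.79 in HB1, -3.44 in HNG2 and -7.74 in NPC, and was not well above background in iHPC 9F or NPC. The Sox6 probe A_52_P284996 was well above background only in NPC (-3.62), at least 3.52-fold lower in iHPC (adjusted p over all probes 0.0338) and at least 6.46-fold lower in HPC (0.0151). This probe, too, entered the test only through the NPC array. The 5 Sox6 probes span 69852 bases in mm7, and which transcripts each reads is not given in the sources used here. Sox13 had -2.26 and -2.04 in iHPC, -2.34 in HB1 and -0.36 in HNG2, and -1.50 in NPC, a gap of 1.97 between the HPC lines.

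**Figure D4:**
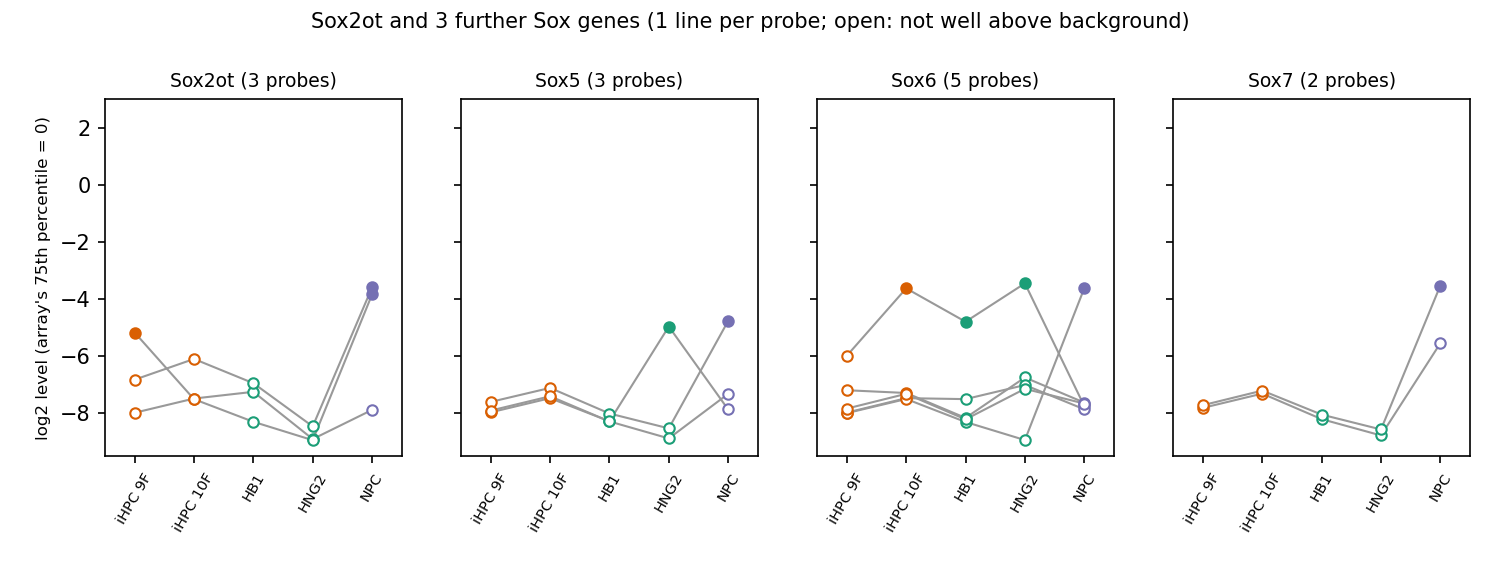
Log2 level (vertical axis, array's 75th percentile at 0) on the 5 arrays (horizontal axis, iHPC in orange, HPC in green, NPC in purple) for every probe of Sox2ot, Sox5, Sox6 and Sox7, with 1 line per probe and open points where it was not well above background. These genes were picked from the family with their values known, so nothing is read from the probe on each panel that is well above background on the NPC array. The Sox6 probe A_52_P282171 is at -7.74 there.

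Sox15, the SoxG gene, had levels of -1.86 and -2.22 in iHPC, -3.28 and -3.73 in HPC, and -2.27 in NPC, with an iHPC minus HPC difference of 1.46 ± 0.28 (SE, adjusted p = 0.0815). Sox12, a SoxC gene, had -4.93 and -4.82 in iHPC, -3.54 and -4.46 in HPC, and -5.01 in NPC, with no call. Sox14, a SoxB2 gene, had -4.42 and -4.19 in iHPC, -3.77 and -4.94 in HPC, and -4.02 in NPC, with no call. Sox30 and Sry were not well above background on any array. A probe that the files name Sox19, whose accession had no match in the RefSeq table, was well above background on every array, with levels from -5.89 to -4.23.

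Of the 8 tested members, Sox17 had the largest difference between iHPC 10F and 9F (1.34, not well above background on either), and Sox2 the next (-0.84). Over all genes 3.94% differed by more than 1 log2 unit between the iHPC arrays and 26% between the HPC arrays. Between HNG2 and HB1, Sox1 differed by -2.03 and Sox9 by 1.11, while Sox4 differed by 0.03 and Sox11 by -0.0046. These pairs are 1 array each and have no test.

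For each member, the genes with the most similar pattern over the 5 arrays were found by the root mean square distance of log2 levels after subtraction of each gene's mean. For Sox2 these were Hvcn1 (0.317), Barx1 (0.457) and Col5a2 (0.473). Hvcn1, a proton channel gene, had levels of -3.59 and -3.65 in iHPC, -7.35 and -8.30 in HPC, and 1.64 in NPC. For Sox4 they were Lrrc75a (0.0494), Fign (0.113) and Mef2a (0.125), and for Sox11 Rnf32 (0.0497), Snx18 (0.0528) and Zc3h7b (0.0648). For Sox9 they were Prdx4 (0.0516), Iftap (0.0955) and Chst1 (0.104). Sox10 was nearest to Adgrg3 (0.0474), and the genes nearest to Sox1, Sox17 and Sox21 were at distances of 0.0684 (Olfr1043), 0.131 (NAP045909-1) and 0.0456 (A_52_P836776). These distances rest on 5 arrays and 19308 genes and describe likeness of pattern alone.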

How the data were processed

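RNA of 5 samples was labelled with Cy3 and hybridised to single-colour arrays, 0.25 µg per array. Spot intensity was deposited as the scanner's processed signal, made by Agilent Feature Extraction 10.7.3.1 per the file headers. The deposited value table equalled these intensities on 100% of its values. Log2 processed signal minus each array's 75th percentile was used, without control spots and outlier-flagged spots, with repeat spots averaged. A gene was read by its brightest probe among those well above background on all arrays of 1 or more groups. All 5 arrays and 3 groups were fitted with limma 3.58.1 (R 4.3.3, lmFit and eBayes, 2 residual degrees of freedom), and p-values were adjusted by Benjamini-Hochberg over 19308 genes. The code was checked on simulated data. Alternatives changed the normalization, background correction, filter, probe rule, groups and arrays. Probe names came from the files or, for 22940 probes, from the current RefSeq symbol of their accession. All 10 members and the other Sox family genes were named, further genes came from 7 pathway lists and 6 marker lists, and the 3 nearest genes of each member were listed. Within a list, genes were named from up to 6 called per comparison by size and the 4 listed first. Some genes that this rule names are not reported here. The members and lists were chosen with earlier results of these data known.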

Additional observations from a re-analysis of the deposited data

How the results depend on the processing

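Leaving out 1 array each, the number of genes called ranged from 0 to 6754 for iHPC minus NPC (1090 as reported), 0 to 6987 for iHPC minus HPC (1048) and 0 to 9762 for HPC minus NPC (3024), with 0 in each without either iHPC array. With the iHPC arrays as separate groups the counts by limma were 0, 0 and 0 (2570, 2665 and 3889 genes at an unadjusted p under 0.05). Without a filter they were 305, 460 and 1643. Probes well above background on all arrays gave 492 for iHPC minus NPC and 617 for iHPC minus HPC, and normexp gave 2069 for iHPC minus HPC and 4677 for HPC minus NPC. Only the groups compared gave 6754 for iHPC minus NPC, as did scan day as a block, and 0 for HPC minus NPC by limma (3889 at an unadjusted p under 0.05). Without an iHPC array the unadjusted counts were 2125 and 2122, 1903 and 1936, and 3889. These fits keep 1 residual degree of freedom, so a lone array is assumed to vary like the remaining pair. Median centring moved the median of all genes to 0.26 for HPC minus NPC and -0.19 for iHPC minus HPC, and the share of called genes that were higher to 54.1% (42.7% as reported) and 52.4% (65.4%).

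Sox2 kept its direction in every alternative run, and, with numerically identical fits counted once, its call in 6 of 10 for iHPC minus NPC, 8 of 11 for iHPC minus HPC and 8 of 9 for HPC minus NPC. No difference that changed sign was called as reported, and the cause of these changes was not tested. With the mean of probes, iHPC minus NPC was 0.95 for Sox21 and -0.59 for Sox6, iHPC minus HPC was -0.0381 for Sox9 and 0.10 for Sox6, and HPC minus NPC was 0.37 for Sox21 and -0.69 for Sox6. With normexp, iHPC minus NPC was -0.00090 for Sox12, iHPC minus HPC was 0.24 for Sox17, 0.27 for Sox6 and 0.0231 for Sox12, and HPC minus NPC was -0.44 for Sox17 and -0.0240 for Sox12. With median centring, iHPC minus HPC was -0.0947 for Sox9 and -0.20 for Sox14, and HPC minus NPC was 0.0653 for Sox4. With quantile normalization, iHPC minus HPC was -0.0055 for Sox7 and -0.24 for Sox14, and HPC minus NPC was 0.00031 for Sox14. Leaving out 1 array each, iHPC minus HPC ranged from -0.64 (without HNG2) to 1.40 (without HB1, adjusted p = 0.0327) for Sox1, -0.40 (without HB1) to 0.71 (without HNG2, 0.0432) for Sox9, -1.86 (without iHPC 10F) to 0.50 (without iHPC 9F) for Sox6, -1.79 (without HB1, 0.0157) to 0.19 (without HNG2) for Sox13 and -0.54 (without HNG2) to 0.64 (without HB1) for Sox14. HPC minus NPC ranged from -1.75 (without HB1, 0.0212) to 0.28 (without HNG2) for Sox1, -0.0282 (without HB1) to 0.51 (without HNG2) for Sox17, -0.83 (without HNG2, adjusted p = 0.0499) to 1.14 (without HB1, 0.0282) for Sox13, so both signs passed the threshold, and -0.92 (without HB1, 0.0434) to 0.25 (without HNG2) for Sox14. No paired analysis was possible because the labels give no replicate numbers. The run called scan day as a block kept only the arrays of the NPC scan day, and no block term was fitted. Scan day could not be a block in comparisons with HPC, whose arrays each have a day of their own.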
